A study of Mus musculus with 10 samples.

Results

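Immunoglobulin variable segments are the V genes of the heavy chain locus (Ighv), the kappa light chain locus (Igkv) and the lambda light chain locus (Iglv). They were taken as all genes whose symbol starts with Ighv, Igkv or Iglv. These were 348 of the 32285 genes in each deposited matrix, and comprised 185 Ighv, 160 Igkv and 3 Iglv segments. The choice used symbols only and no measured value. Counts are unique molecular identifiers (UMIs), each one captured RNA molecule, from droplet single-cell libraries that read the 3' end of polyadenylated RNA.

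A B cell joins 1 V segment to D and J segments at the heavy chain locus and 1 V segment to a J segment at a light chain locus. The joined exon encodes the antigen-binding part of the antibody, so all descendants of a cell carry the same pair. Naive B cells express it with the Ighm and Ighd constant genes. In germinal centres it is altered by hypermutation and its constant gene can be switched, and plasma cells transcribe it at very high levels together with Jchain, which joins antibody units. Most mouse B cells use kappa, and the lambda locus holds few V segments.

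The study took lymph nodes of female wild-type BALB/C mice aged 8 weeks, with at least 3 mice per condition and no map from cells to mice. A stromal library (endothelial cells and fibroblasts, axillary node) pooled 4 hashtagged conditions, and a library of myeloid and stromal cells from the axillary node pooled 3. The naive mice were untreated. The 4T1 and 67NR mice bore mammary tumours, grown for 18 days to 500 mm3 from the breast cancer line of that name placed in mammary pad 4. The LPS mice, present in the stromal library only, were injected subcutaneously and killed after 72 h. An axillary and a mediastinal atlas of myeloid, T and B cells came from naive mice. B cells were therefore outside the labelled populations of the first 2 libraries. Each condition of a library was 1 sample, so no comparison has a replicate check. The 95% intervals are exact and cover counting error only, and UMIs of 1 cell are not independent of each other.

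The stromal library gave 2350 usable cells (median 12899 UMIs) and the myeloid and stromal one 5412 (10802.5). The axillary atlas gave 11503 (6653) and the mediastinal 25148 (2272). Between 3 and 80 barcodes were shared by any 2 libraries, and none of these was among the Jchain-high cells described below. V segments gave 9783 UMIs in the 44413 cells, from 229 of the 348 segments. Among them 48 segments reached 50 UMIs. In the myeloid and stromal library another 2636 V UMIs lay on barcodes with 2 hashtags or none, against 3345 on the cells used.

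Gates were set on genes outside the V segments. Naive B cells had Cd79a (a subunit of the B cell receptor), Ms4a1 (CD20) and Ighd, no Cd3e and fewer than 3 of 10 germinal-centre genes. Germinal-centre cells had Cd79a, no Cd3e and at least 3 of the 10, and lay outside the plasma gate. The plasma gate asked for Jchain at 5 or more UMIs and Mzb1, a chaperone of antibody assembly, at 2 or more. The plasma gate held 587 cells and did not match its name. Of these, 567 had fewer than 100 Jchain UMIs, and in the axillary atlas 446 of its 447 such cells had at least 3 of the 10 germinal-centre genes, 100% had Ms4a1 and 0.895% had Sdc1 (syndecan-1, a plasma cell surface protein). The other 20 cells, here called Jchain-high, had 146 to 4001 Jchain UMIs. No cell of the gate lay between 88 and 146. Sdc1 was detected in 81.8% of the 11 Jchain-high cells of the 4T1 mice and in all 3 of the stromal library. The line at 100 was drawn after this was seen. Cells with Cd79a, no Cd3e and at least 3 of the 10 germinal-centre genes, including plasma-gate cells under that line, are called germinal-centre-type cells, and their gate was likewise widened after the values were seen. In the mediastinal atlas widening took the gate from 212 to 227 cells. Most of the 37 plasma-gate cells of that atlas were therefore not of this type. Of the Jchain-high cells in the axillary atlas, 1 had 8 of the 10 germinal-centre genes and 13 V UMIs.

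The sequences that the results turn on are shown first. Each is the 3' end of the reference transcript (GENCODE M21, GRCm38, the C57BL/6 strain) in the last of 2 exons, where a 3' read of V sequence can lie. Capitals mark bases that differ from the first sequence of a set. A sequence printed without capitals opens a new set, and its differences from the sequences above it are not marked. The mice were BALB/C, so their own alleles may differ from these. The lambda segments carried most light chain V UMIs of the Jchain-high cells. Iglv1 (chr16:19085017-19085500, minus strand) and Iglv2 (chr16:19260401-19260859, minus strand) were identical at 354 of 366 aligned bases over their whole transcripts (96.7%), and Iglv1 and Iglv3 (chr16:19241207-19241690, minus strand) at 56.2%.
Iglv1: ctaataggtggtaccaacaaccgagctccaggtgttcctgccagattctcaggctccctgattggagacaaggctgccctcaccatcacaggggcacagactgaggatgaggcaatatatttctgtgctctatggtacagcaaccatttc
Iglv2: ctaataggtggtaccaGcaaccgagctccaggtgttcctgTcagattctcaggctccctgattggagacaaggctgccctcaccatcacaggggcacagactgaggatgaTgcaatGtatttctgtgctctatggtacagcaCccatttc
Iglv3: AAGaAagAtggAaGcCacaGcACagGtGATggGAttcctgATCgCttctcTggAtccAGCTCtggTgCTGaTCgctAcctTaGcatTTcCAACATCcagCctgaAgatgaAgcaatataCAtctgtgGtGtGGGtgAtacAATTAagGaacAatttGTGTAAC

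The kappa segments that led the germinal-centre-type cells were Igkv1-117 (chr6:68121046-68121827, plus strand), Igkv1-110 (chr6:68270485-68271267, plus strand) and Igkv9-120 (chr6:68049983-68050456, plus strand). Igkv1-110 was 97.5% identical to Igkv1-117, with 4 differing bases in the stretch shown, and Igkv9-120 was 61.9% identical to Igkv1-117. Igkv9-120 is printed as a set of its own, so its differences from Igkv1-117 are not marked.
Igkv1-117: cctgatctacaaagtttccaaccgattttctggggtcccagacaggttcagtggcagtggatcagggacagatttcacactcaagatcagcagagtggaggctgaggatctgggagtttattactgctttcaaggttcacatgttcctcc
Igkv1-110: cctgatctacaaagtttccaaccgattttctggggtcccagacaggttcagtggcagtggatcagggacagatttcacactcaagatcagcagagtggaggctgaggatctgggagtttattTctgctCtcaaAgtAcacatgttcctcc
Igkv9-120: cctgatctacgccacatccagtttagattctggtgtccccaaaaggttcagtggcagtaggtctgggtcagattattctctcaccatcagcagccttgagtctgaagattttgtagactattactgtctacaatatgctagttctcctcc

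Heavy chain segments are shown because cells carried UMIs of close relatives side by side. Ighv4-1 (chr12:113948282-113948796) and Ighv4-2 (chr12:114013144-114013606) differed at 4 of the 150 bases, and the annotation calls Ighv4-2 a pseudogene. Ighv9-3 (chr12:114140692-114141122) and Ighv9-1 (chr12:114093928-114094358) differed at 10 bases. Ighv5-6 (chr12:113625506-113625956) differed from Ighv5-4 (chr12:113597446-113597977) at 9 bases and from Ighv5-9 (chr12:113661769-113662293) at 7. All of these lie on the minus strand.
Ighv4-1: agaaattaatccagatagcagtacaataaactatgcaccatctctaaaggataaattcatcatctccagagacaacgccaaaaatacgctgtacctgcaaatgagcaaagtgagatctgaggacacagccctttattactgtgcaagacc
Ighv4-2: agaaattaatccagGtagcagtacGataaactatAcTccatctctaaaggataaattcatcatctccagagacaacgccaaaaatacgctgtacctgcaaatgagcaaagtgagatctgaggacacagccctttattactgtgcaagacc
Ighv9-3: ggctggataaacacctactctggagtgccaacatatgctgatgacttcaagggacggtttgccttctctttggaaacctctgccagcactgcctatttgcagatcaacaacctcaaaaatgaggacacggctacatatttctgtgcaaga
Ighv9-1: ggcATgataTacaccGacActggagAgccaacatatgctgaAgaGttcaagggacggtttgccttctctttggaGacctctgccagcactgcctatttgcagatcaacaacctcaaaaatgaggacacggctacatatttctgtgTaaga
Ighv5-6: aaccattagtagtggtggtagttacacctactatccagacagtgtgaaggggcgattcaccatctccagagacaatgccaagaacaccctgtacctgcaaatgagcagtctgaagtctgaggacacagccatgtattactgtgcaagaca
Ighv5-4: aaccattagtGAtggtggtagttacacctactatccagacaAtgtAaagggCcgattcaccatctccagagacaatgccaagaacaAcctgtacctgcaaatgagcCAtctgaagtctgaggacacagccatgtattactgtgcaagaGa
Ighv5-9: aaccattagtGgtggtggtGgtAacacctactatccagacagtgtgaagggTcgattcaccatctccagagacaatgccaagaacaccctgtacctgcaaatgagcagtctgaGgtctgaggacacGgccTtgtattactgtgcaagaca

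Naive B cells of the axillary atlas used V segments broadly, with a small group of leaders. Their 1393 cells gave 1650 V UMIs, or 204.7 per 1000000 gene UMIs (CPM; interval 195 to 214.9), and 62.4% of the cells had at least 1. T cells of the same library had 0.299 CPM (0.159 to 0.512). The heavy chain locus supplied 1089 UMIs over 97 segments, the kappa locus 513 over 77 and the lambda locus 48 over 3. The effective number of equally used segments, taken from the entropy of the shares, was 53.9 for Ighv and 40.9 for Igkv.

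Ighv5-6 led the heavy chain with 99 UMIs in 60 cells, which was 9.09% of Ighv UMIs (7.45 to 10.96). Ighv9-3 followed with 79 UMIs in 51 cells (7.25%, 5.79 to 8.96). The intervals of these leaders overlapped each other, and both lay above the intervals of the next segments. Ighv3-2 had 43 UMIs (3.95%), Ighv1-14 had 40 (3.67%) and Ighv5-9 had 38 (3.49%), with overlapping intervals. No cell held more than 6 UMIs of Ighv5-6. At the kappa locus Igkv1-117 had 77 UMIs in 33 cells, which was 15.0% of Igkv UMIs (12.03 to 18.4). Igkv12-44 had 28 UMIs (5.46%), Igkv6-20 had 24, Igkv8-19 had 22 and Igkv12-41 had 20, and the intervals of these 4 overlapped. Iglv3 had 28 UMIs, Iglv1 had 19 and Iglv2 had 1.

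Use did not follow the number of segments in a family. The Ighv1 family held 50.3% of the Ighv segments and 34.7% of the naive B Ighv UMIs (31.9 to 37.6). Ighv5 held 11.9% of the segments and 19.3% of the UMIs, and Ighv9 held 2.16% of the segments and 8.63% of the UMIs. At the kappa locus the Igkv4 family held 20.6% of the segments and 4.68% of the UMIs, whereas Igkv1 held 8.13% and 22.8% and Igkv12 held 7.5% and 17.4%.

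Segments were also unevenly used along the loci, as ordered in the reference strain. The 47 Ighv segments nearest to the constant genes, Ighv5-6 among them, gave 42.2% of naive B Ighv UMIs (39.3 to 45.2), and the next sets of 46 gave 31.3%, 11.5% and 15.0%. At the kappa locus the nearest 40 segments gave 29.0% (25.2 to 33.2) and the farthest 40, Igkv1-117 among them, gave 35.9% (31.7 to 40.2). Annotated pseudogenes were unevenly spread, with 16, 17, 22 and 15 in the Ighv sets, 6 in the nearest Igkv set and 18 in the farthest. In all, the annotation calls 70 Ighv and 60 Igkv segments pseudogenes. These gave 13.3% of naive B Ighv UMIs (11.4 to 15.5) and 1.56% of Igkv UMIs (0.676 to 3.05). Ighv3-2 and Ighv1-14, next after the leaders of the heavy chain, are both annotated as pseudogenes. Whether reads of BALB/C segments absent from the reference were assigned to these was not tested.

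**Figure D1:**
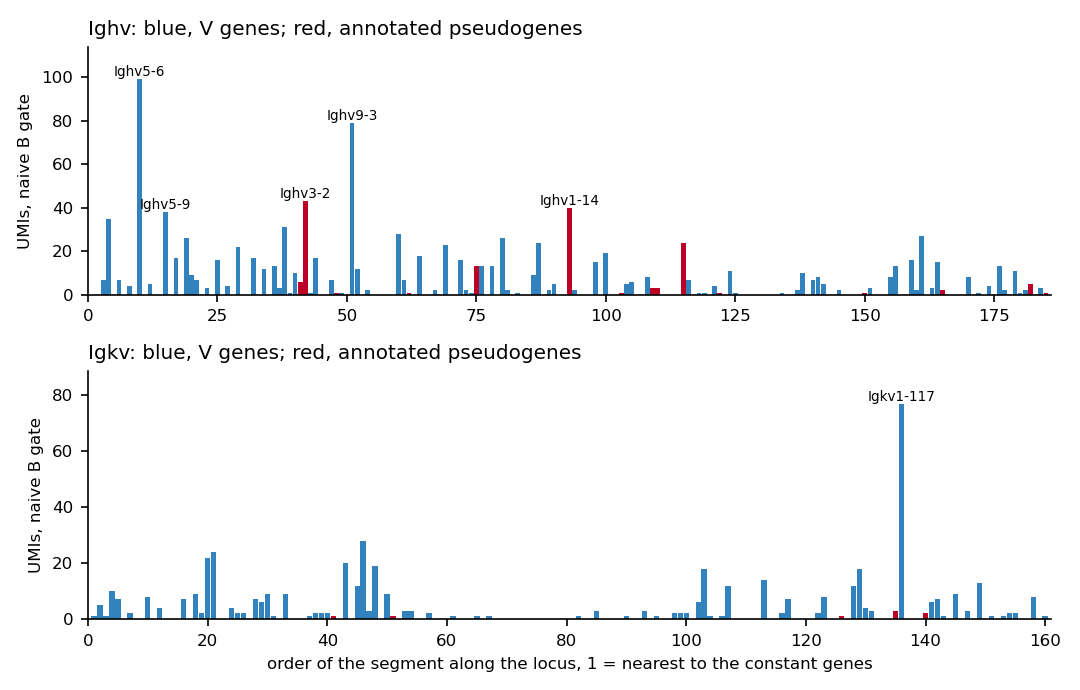
UMIs of each Ighv (top) and Igkv (bottom) segment in the 1393 naive B cells of the axillary atlas, in order along the locus from the constant genes; bars are sums over cells, red for annotated pseudogenes. Ighv5-6 with 99 UMIs and Igkv1-117 with 77 UMIs stand highest, and Ighv3-2 and Ighv1-14 are the tallest red bars.

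Mediastinal naive B cells showed fewer V UMIs on a shallower library. Their 517 cells gave 129 V UMIs, 68.8 CPM (57.5 to 81.8), and T cells of that library gave 21.9 CPM (18.3 to 26.0). The ratio of axillary to mediastinal V sums was 1.57 on the log2 scale (1.31 to 1.84). Ighv5-6 had 99 against 5 UMIs (log2 ratio 2.20, 0.93 to 3.86), Ighv9-3 had 79 against 2 (3.20, 1.30 to 6.27) and Igkv1-117 had 77 against 6 (1.58, 0.39 to 3.07). These 3 were the only segments with 50 UMIs in either gate, and all 3 were called higher in the axillary gate (at least 2-fold, interval without 0). Over all genes 3.86% of 8798 were called higher and 4.73% lower. With 129 V UMIs in the mediastinal gate, and at most 6 on 1 segment, a segment could reach 50 only through the axillary gate, so nothing is read from the count of 3. As a share of their locus, Ighv5-6 had 6.10% in the mediastinal gate (2.01 to 13.7) and Igkv1-117 had 13.6% (5.17 to 27.4), and both intervals contained or overlapped those of the axillary gate. Ighv1-23 led the mediastinal Ighv with 6 UMIs in 2 cells, and the 5 UMIs of Ighv5-17 came from 1 cell. Ighv2-9 and Ighv3-2 had 4 each. After Igkv1-117, Igkv12-89 had 4 UMIs, and Igkv17-121, Igkv16-104 and Igkv15-103 had 2 each. Iglv3 had 2 UMIs and Iglv1 had 1.

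Depth and T cell RNA moved with this comparison. The mediastinal gate had a median of 3078 UMIs per cell against 5219, and 3 of 5 T cell markers were detected in at least 50% of its cells against 0 of 5 in the axillary gate. The summed T cell markers had a median of 7 UMIs per cell (0 to 25) against 0 (0 to 38). Surface IgD tags had medians of 92 against 437 counts, with 44 and 10 on the T cells. Their part in the ratios was not tested. With each cell thinned to 1000 UMIs no segment was called, and with a minimum of 20 UMIs 9 were higher. After thinning the log2 ratio of the V sums was 2.15. Of the fixed list of 10 B receptor genes, 6 were higher in the axillary gate, Fcmr (the IgM receptor, log2 ratio 1.23) and Cr2 (a complement receptor, 1.33) among them, and none was lower. Jchain was lower, with 13 UMIs against 169.

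In germinal-centre-type cells of the axillary atlas Ighv was lower and Igkv higher than in naive B cells. There the 544 germinal-centre-type cells had 181 Ighv UMIs against 1089 in naive B cells, or 26.6 against 135.1 CPM (log2 ratio -2.35, -2.58 to -2.12). Their Igkv UMIs numbered 812 against 513, or 119.3 against 63.7 CPM (0.91, 0.74 to 1.07). Iglv UMIs numbered 36 against 48 (-0.17, -0.84 to 0.48), and relative to the lambda constant genes their log2 ratio was -0.88 (-1.54 to -0.23). Relative to 1000 UMIs of the heavy constant genes Ighv UMIs numbered 13.8 against 77.8 (-2.49, -2.73 to -2.26), and relative to 1000 UMIs of Igkc, the kappa constant gene, Igkv UMIs numbered 14.4 against 12.2 (0.24, 0.08 to 0.41).

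The lower Ighv level was not limited to switched cells. Cells led by Ighm, 259 in number, had 32.3 Ighv CPM (26.5 to 39.1), and the 183 led by Ighg1 had 17.8 (12.8 to 24.2). Per 1000 heavy constant UMIs the values were 12.5 and 13.5. The 67 cells led by Ighg2b had 27.6 CPM and 17.8 per 1000. In the myeloid and stromal library Ighv was 26.0 CPM in 52 germinal-centre-type cells of 4T1 mice against 83.0 in 31 naive B cells (log2 ratio -1.68, -2.53 to -0.81). In 67NR mice it was 17.4 in 67 cells against 79.7 in 28 (-2.19, -3.08 to -1.32). In naive mice it was 125 in 11 cells against 29.4 in 24 (2.09, 0.81 to 3.64), but 28 of the 32 UMIs came from 1 cell with 27 of Ighv9-4, and without that cell's Ighv UMIs the level was 15.6. Igkv had a log2 ratio of 0.24 in 4T1 mice (-0.62 to 1.19) and 0.68 in 67NR mice (-0.25 to 1.74), with 0 in both intervals. In naive mice it went the other way from the axillary atlas, with 3 UMIs against 12 (-2.33, -4.79 to -0.44). In the mediastinal atlas the interval of the ratio included 0, with 45.3 in 227 cells against 43.8 in 517 (0.05, -0.48 to 0.57), and Igkv was higher (0.80, 0.18 to 1.43). Its germinal-centre-type cells had Ms4a1 in 56.4% of cells against 99.4% in the axillary atlas. Surface IgD tags of these mediastinal cells had a median of 85 counts, near the 92 of the mediastinal naive B cells. The axillary medians were 14 and 437. By this tag the mediastinal gates were not well separated, so their ratios may not compare germinal-centre with naive B cells.

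**Figure D2:**
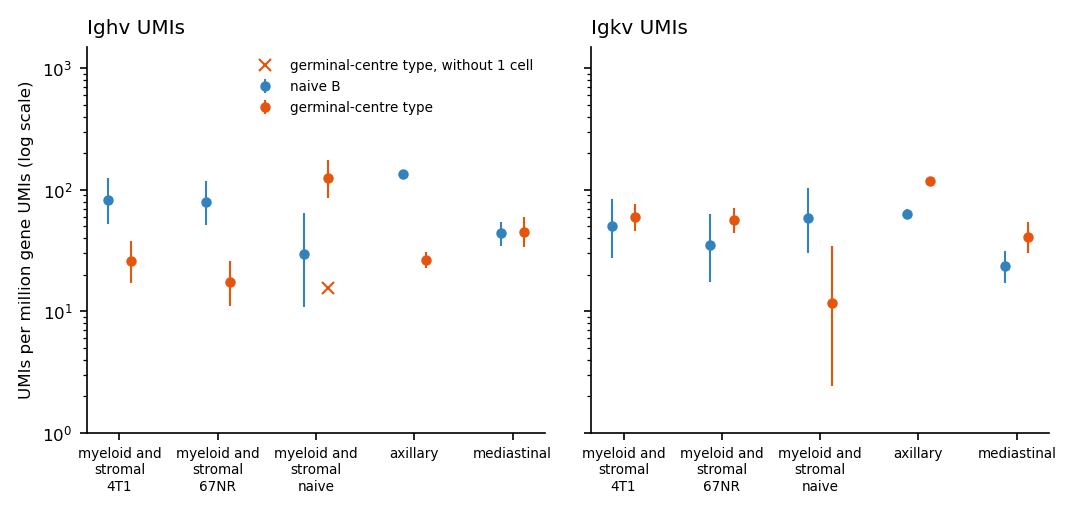
Ighv (left) and Igkv (right) UMIs per 1000000 gene UMIs, on a log scale, in naive B cells and germinal-centre-type cells of 5 samples; bars are exact 95% Poisson intervals for counting error. Ighv lies lower in germinal-centre-type cells of the axillary atlas (26.6 against 135.1), the 4T1 and the 67NR mice, and the cross shows the naive mice of the myeloid and stromal library without 1 cell (15.6).

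Single segments followed in both directions. In the narrower gate of 159 axillary cells outside the plasma gate, 3 segments reached 50 UMIs. Igkv1-117 was called higher, with 58 UMIs against 77 in the much larger naive B sum (log2 ratio 1.89, 1.38 to 2.40). Ighv5-6 was called lower, with 3 against 99 (-2.74, -5.04 to -1.15), and Ighv9-3 was not called, with 9 against 79 (-0.83, -2.01 to 0.17). Over all genes 5.71% of 8764 were higher and 6.21% lower. With the 544 germinal-centre-type cells 5 segments reached 50 UMIs, and 3 were higher and 2 lower, against 10.5% and 9.63% of 9238 genes. With either gate only Igkv1-117 reached 50 UMIs on both sides. The others reached it only on the side where they were higher, so nothing is read from these counts. Igkv9-120 had 109 UMIs against 6 (4.43, 3.26 to 5.90), Igkv1-110 had 91 against 18 (log2 ratio 2.58, with 1.84 as its lower limit) and Igkv1-117 had 148 against 77 (1.19, 0.78 to 1.60). Ighv5-6 had 5 against 99 (-4.06, -5.72 to -2.79) and Ighv9-3 had 22 against 79 (-1.60, -2.35 to -0.90). In the mediastinal atlas no segment reached 50 UMIs, and 0.952% of 5254 genes were higher and 1.39% lower.

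Shares within a locus separated the change of a segment from that of its locus. Igkv9-120 rose from 1.17% of Igkv UMIs in naive B cells (0.430 to 2.53) to 13.4% in germinal-centre-type cells (11.2 to 16.0), and Igkv1-110 from 3.51% (2.09 to 5.49) to 11.2% (9.12 to 13.6). The shares of Igkv1-117, 15.0% and 18.2%, had overlapping intervals, but in the narrower gate its share was 27.1% (21.3 to 33.6), above the interval of the naive B cells. The 109 UMIs of Igkv9-120 lay in 17 cells, up to 24 in 1 cell, so a few cells set this share. In the narrower gate it was 5.14% (2.59 to 9.01), and 2% when each cell counted once by its leading segment. In the myeloid and stromal library Igkv9-120 had 0 of 62 Igkv UMIs in the 52 germinal-centre-type cells of 4T1 mice (3 counts would be 4.84%). In the 67 such cells of 67NR mice it had 1 of 74. With 17 carriers among 544 axillary cells, these cells are too few to show a difference in its frequency. Ighv9-3 went from 7.25% to 12.2% of Ighv UMIs with overlapping intervals, although its level CPM fell. Ighv1-47 had 18 UMIs in 9 germinal-centre-type cells (9.94%, 6.001 to 15.3) and 0 of 1089 Ighv UMIs in naive B cells (upper limit 0.338%). In 67NR mice Ighv1-47 had 9 of 23 Ighv UMIs, in 6 cells, and 4 UMIs in 1 naive B cell. In 4T1 mice it had 0 of 27. The 40 kappa segments farthest from the constant gene, which include these 3 leaders, gave 51.0% of Igkv UMIs (47.5 to 54.5).

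**Figure D3:**
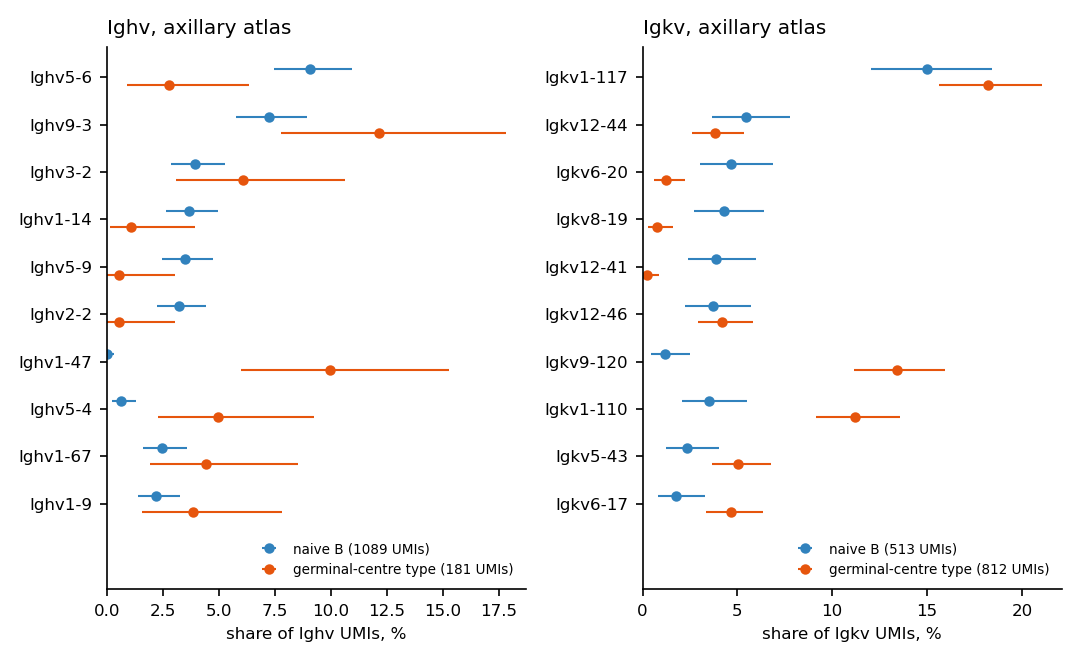
Share of Ighv (left) and Igkv (right) UMIs held by the leading segments in naive B cells and germinal-centre-type cells of the axillary atlas; points are shares and bars exact 95% binomial intervals. Igkv9-120 and Igkv1-110 lie higher in germinal-centre-type cells (13.4% and 11.2%), and Ighv5-6 lies lower.

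The leading constant genes of germinal-centre-type cells were also counted by leading kappa segment. A cell was assigned where it had at least 2 light chain V UMIs, and its heavy constant gene where it had at least 3 UMIs of it. Of 13 axillary germinal-centre-type cells led by Igkv9-120, 10 were led by Ighg2b, against 28 of all 173 cells so assigned. Of 29 cells led by Igkv1-117, 25 were led by Ighg1, against 69 of the 173. All 6 cells led by Igkv1-135 and 8 of 11 led by Igkv12-44 were led by Ighm, against 73 of the 173; Igkv1-135 was chosen after its values were seen. Cells led by Igkv1-110, which is nearly identical to Igkv1-117 in sequence, were led by Ighm in 9 and by Ighg1 in 8 of 19. Cells of 1 library may be clonal relatives, and no test was made on these counts.

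Some genes of the fixed lists differed between the germinal-centre and naive B gates of the axillary atlas. Of the genes for switching and hypermutation, Polh (a translesion polymerase) was higher in the narrower axillary gate, with 241 UMIs against 192 in the larger naive B sum (log2 ratio 2.63, 2.35 to 2.91). With germinal-centre-type cells Polh had a log2 ratio of 2.96 (2.74 to 3.18), Msh6 (mismatch repair) 1.03 and Exo1 (an exonuclease) 1.22, and all 3 were called higher. Of the octamer factors, which bind V promoters, Pou2f1 was lower in germinal-centre-type cells (-1.16) and Pou2f2 and Pou2af1 were not called. In the narrower gate no octamer factor was called. Of 10 measured genes of V(D)J recombination, 3 were higher in germinal-centre-type cells: Vpreb3 (1.10), Lig4 (1.54) and Hmgb2. Over all genes 10.5% of 9238 were higher. V(D)J genes with fewer than 50 UMIs in both gates, 6 of 16, were not measured. In the narrower gate 1 of 9 was higher, Hmgb2, against 5.71% of 8764 genes. In germinal-centre-type cells the B receptor list had 1 higher and 1 lower of 10. The antibody secretion list had 3 lower and 2 higher of 10 measured. Those 2, Jchain and Mzb1, also define the plasma gate.

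The largest V levels came from the 20 Jchain-high cells. They held 4031 of the 9783 V UMIs (41.2%). They made up 96.9% of V UMIs in the stromal library (3 cells, all from 67NR mice) and 88.3% in the myeloid and stromal library (14 cells, 11 from 4T1, 1 from 67NR and 2 from naive mice). In the axillary atlas 3 cells held 5.05%, and the mediastinal atlas had none. Their number by condition is a count of cells from pooled mice, and cells of a type that the sort was not labelled to collect. V UMIs per cell ranged from 5 to 494 with a median of 162.5, and immunoglobulin genes took 5.19% to 57.8% of a cell's UMIs.

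**Figure D4:**
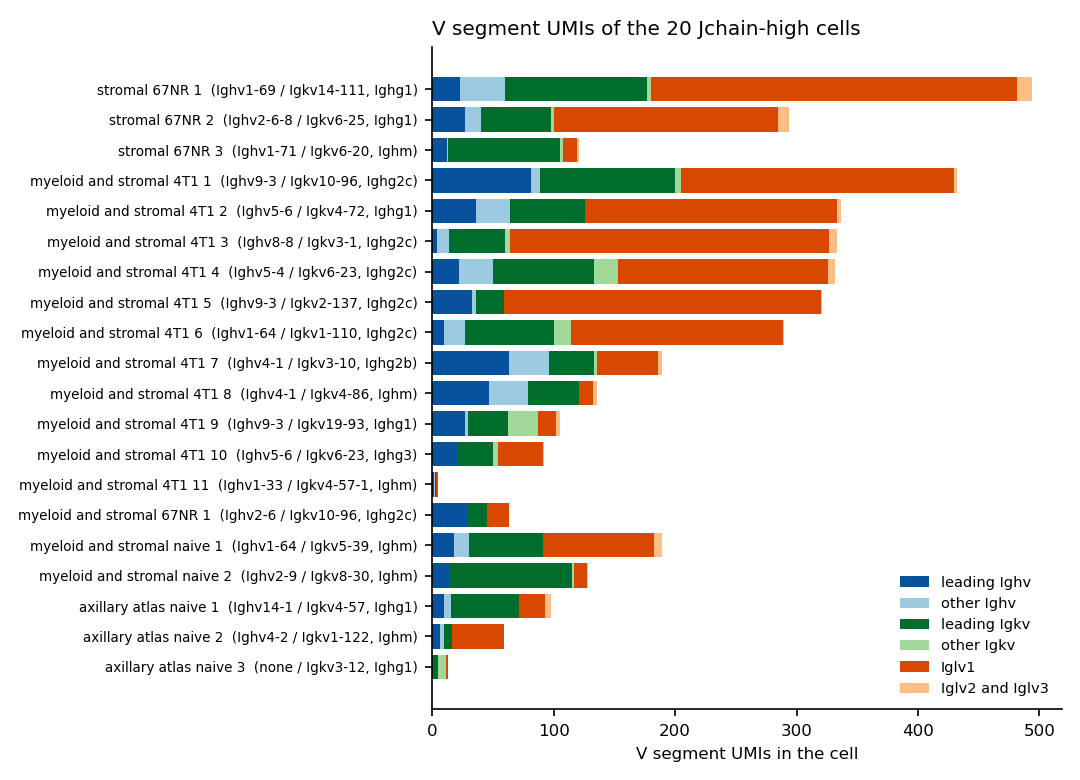
V segment UMIs of each of the 20 Jchain-high cells, with the leading Ighv and Igkv segment and leading heavy constant gene after each cell's name; bars are counts of 1 cell each. Iglv1 forms the longest section in 12 of the 20 cells, and no pair of leading segments recurs.

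By name, each of these cells had its own pair of leading heavy and kappa segments. In 17 cells with at least 5 UMIs of the leading Ighv and the leading Igkv, 17 different pairs were found. Igkv6-23 led 2 cells of 4T1 mice, both with leaders of the Ighv5 family. One had 83 UMIs of it beside 22 of Ighv5-4, 16 of Ighv5-6 and 12 of Ighv5-9. The other had 29 beside 21 of Ighv5-6. Whether these pairs differ cannot be told from the names of close relatives. Counting leaders with at least 5 UMIs, there were 12 different Ighv and 17 different Igkv leaders. The cell with the most V UMIs, from the stromal library, had 23 UMIs of Ighv1-69 and 117 of Igkv14-111. The other stromal cells paired Ighv2-6-8 (27 UMIs) with Igkv6-25 (58) and Ighv1-71 (12) with Igkv6-20 (92). Ighv9-3 led 3 cells of 4T1 mice, with 81, 33 and 27 UMIs, each with a different kappa leader, Igkv10-96 (111), Igkv2-137 (23) and Igkv19-93 (33). Ighv4-1 led another 2, with 63 and 47 UMIs, beside Igkv3-10 (37) and Igkv4-86 (42). In 4T1 mice Ighv5-6 (36 UMIs) went with Igkv4-72 (62), Ighv5-4 (22) with Igkv6-23 (83) and Ighv1-64 (10) with Igkv1-110 (73). One 4T1 cell outside the 17 had 4 UMIs each of Ighv8-8, Ighv8-11 and Ighv8-12 beside 46 of Igkv3-1. In naive mice Ighv1-64 (18) went with Igkv5-39 (61) and Ighv2-9 (14) with Igkv8-30 (101). The single 67NR cell of the myeloid and stromal library paired Ighv2-6 (29) with Igkv10-96 (16).

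Several heavy constant genes led these cells. Ighm led 6, of which 2 from 4T1 mice, 1 from 67NR mice (stromal library), 2 from naive mice and 1 from the axillary atlas. Ighg1 led 6, with 2 each from 4T1 mice, 67NR mice (stromal library) and the axillary atlas. Ighg2c led 6, and Ighg2b and Ighg3 led 1 each, both from 4T1 mice. All 6 cells led by Ighg2c came from tumour-bearing mice, 5 from 4T1 and 1 from 67NR, and both naive cells of the myeloid and stromal library were led by Ighm. Ighg2c is the name in the reference strain, and BALB/C mice carry Ighg2a at that place. With 2 naive cells no difference between conditions can be read from this.

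The sums of the plasma gate by condition therefore follow single cells. The gate gave 2373 V CPM in 41 cells of 4T1 mice (2283 to 2465), 138.7 in 49 cells of 67NR mice (117.9 to 162.2) and 1952 in 7 cells of naive mice (1753 to 2168). The ratio of 4T1 to 67NR sums was 4.10 on the log2 scale (3.86 to 4.34), that of 67NR to naive -3.81 (-4.10 to -3.54) and that of 4T1 to naive 0.28 (0.12 to 0.45). Without the Jchain-high cells the levels were 88.6 in 4T1 mice (68.0 to 113.3) and 86.3 in 67NR mice (69.7 to 105.6). In naive mice they were 289.9, where 1 of 5 cells with 27 Ighv9-4 UMIs gave 28 of 33. One cell held 16.4% of the 4T1 sum and another 54.0% of the naive sum. Among Jchain-high cells alone the ratio of 4T1 to 67NR was 2.12 and that of 67NR to naive -1.71. The share of gate cells with at least 2 V UMIs was also compared. Its log2 ratio was 0.69 for 4T1 to 67NR (-0.14 to 1.53) and -0.28 for 67NR to naive (-1.83 to 1.71). Both intervals contained 0. The ratio of 4T1 to naive V sums turned to -0.24 when the hashtag had to exceed the next by 10 times. It turned to -0.28 with Jchain at 20 and Mzb1 at 5 or more. In the stromal library only 67NR mice had cells in the gate, 3 cells with 6635 CPM (6212 to 7079). The 4T1, LPS and naive conditions had 0.

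Segments called between conditions were those of the leading cells. Between 4T1 and naive mice 11 segments reached 50 UMIs, and 9 were higher and 2 lower, against 12.4% and 3.42% of 3271 genes. Apart from Iglv1, each reached 50 UMIs only in the group where it was higher. The tally therefore supports no direction. Ighv9-3 had 143 UMIs in 5 cells against 1 UMI, and 81 of the 143 came from 1 cell. Ighv4-1 had 110 UMIs in 2 cells, and Igkv10-96 had 116, of which 111 in 1 cell. Igkv4-72 had 62 UMIs in 1 cell. Against 0 UMIs in naive mice, Igkv10-96 was at least 6.24-fold and Igkv4-72 at least 3.34-fold higher, with 0 set at 3 UMIs of the group. Igkv8-30 (0 against 101) and Igkv5-39 (0 against 61) were lower, each from 1 naive cell. Between 67NR and naive mice 3 segments were measured and all 3 were lower, Igkv8-30, Igkv5-39 and Iglv1, against 23.3% of 3888 genes higher and 3.11% lower. Between 4T1 and 67NR mice 9 of 9 were higher, beside 3.75% of 4077 genes higher and 8.14% lower. No segment reached 50 UMIs in the 67NR gate, so in both comparisons with 67NR mice a segment could be measured only through the other group, and these tallies support no direction. These comparisons share samples, and no p-value can be given. Of 12 measured genes of the antibody secretion list, 9 were higher in 4T1 than in 67NR mice. Jchain (log2 ratio 3.94) and Mzb1 among them define the gate, so they are no separate support. Xbp1 (the secretory transcription factor) had a log2 ratio of 1.44, and Sdc1 had 62 UMIs against 3. Jchain-high cells were 11 of the 41 gate cells in 4T1 mice and 1 of the 49 in 67NR mice. In 67NR mice Ighv2-6 led the gate with 30 UMIs, 29 in 1 cell, followed by Ighv1-47 with 9 in 6 cells. Igkv1-117 had 19 UMIs in 3 cells.

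The axillary and mediastinal plasma gates had other leaders. In the axillary atlas Ighv14-1 (17 UMIs, 10 in 1 cell) and Ighv1-47 (16 in 7 cells) led Ighv, and Igkv9-120 and Igkv1-117 had 98 UMIs each, in 15 and 25 cells. In the mediastinal atlas Ighv1-9 had 13 of 31 Ighv UMIs, 9 of them in 1 cell, followed by Ighv5-17 with 5. Igkv14-126 and Igkv16-104 had 5 UMIs each, in 1 cell each.

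Single cells mostly carried 1 kappa segment and 1 family of heavy segments. Over the plasma gates of the 4 libraries, 54 of 61 cells with at least 5 Igkv UMIs had at least 80% of them on 1 segment (88.5%, 77.8 to 95.3). For Ighv this held for 10 of 22 cells (45.5%, 24.4 to 67.8), whereas 21 of the 22 had at least 80% on 1 family (95.5%, 77.2 to 99.9). The second Ighv segment was a close relative of the first. In the Jchain-high cells 13 further Ighv segments with at least 5 UMIs, in 10 cells, all belonged to the family of the leader, with 93.2% to 97.4% identity to it (median 95.5%). The median identity of these leaders to the other Ighv segments was 57.8% to 75.3%. Ighv4-1 and Ighv4-2 had 63 and 32 UMIs in 1 cell and 47 and 32 in another. Ighv5-6, Ighv5-4 and Ighv5-9 had 36, 16 and 12 UMIs in 1 cell and 16, 22 and 12 in another. Ighv1-69, Ighv1-74 and Ighv1-59 had 23, 18 and 17 UMIs in a stromal cell. UMIs of such relatives are uncertain as a choice between them, and the leading segment of these cells is a name for the group.

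A second kappa segment with at least 5 UMIs was found in 3 Jchain-high cells, all from 4T1 mice. One of them had 33 UMIs of Igkv19-93 and 25 of Igkv2-112, which were 59.8% identical, close to the median of 61.9% between Igkv19-93 and the other Igkv segments. Another had 83 UMIs of Igkv6-23 and 19 of Igkv8-21, at 72.9% identity. The other cell had 73 UMIs of Igkv1-110 and 13 of Igkv1-117, relatives of 1 family at 97.5%, like the heavy chain pairs. In the last 2 cells the leader still held at least 80% of the Igkv UMIs. Whether a droplet held 2 cells, or a cell 2 rearrangements, cannot be told apart in these counts.

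Iglv1 was present in every Jchain-high cell although all 20 had more Igkc than lambda constant UMIs. It ranged from 2 to 302 UMIs per cell (median 46.5, sum 2104), led all V segments in 12 of the 20 cells, and exceeded the summed lambda constant UMIs (Iglc1, Iglc2 and Iglc3) in 8. The cell with the most Iglv1 had 302 UMIs of it, 117 of Igkv14-111, 10173 of Igkc and 158 of the lambda constants. The lambda share of light chain V UMIs had a median of 62.6% over the cells (9.65 to 91.9), against 0.882% of light chain constant UMIs (0.0651 to 41.8). It was higher by V than by constant genes in all but 1 cell, the one with 8 germinal-centre genes, which had 15.4% and 41.8%. In the 4T1 plasma gate the shares were 69.0% (67.0 to 71.0) and 1.68% (1.61 to 1.76). With each cell counted once by its leading light chain segment, the share by V was 40% of cells (21.1 to 61.3).

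**Figure D5:**
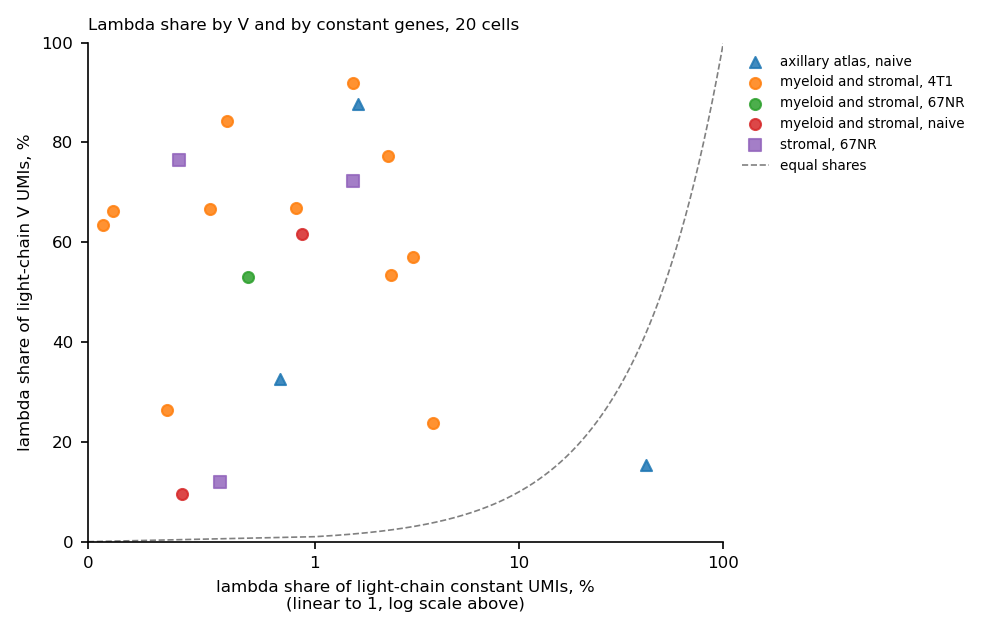
Lambda share of light chain V UMIs against lambda share of light chain constant UMIs (linear to 1%, log scale above) in the 20 Jchain-high cells, each point 1 cell; the dashed curve marks equal shares. All points but 1 lie above the curve.

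In the axillary naive B and germinal-centre-type gates the lambda share by V did not exceed that by constant genes. In axillary naive B cells the lambda share was 8.56% by V (6.38 to 11.2) and 10.1% by constant genes (9.86 to 10.4), and in germinal-centre-type cells 4.25% (2.99 to 5.83) and 10.4%. The 37 plasma-gate cells of the mediastinal atlas, all under 100 Jchain UMIs, had 38.5% by V (25.3 to 53.0) and 9.05% by constant genes (8.16 to 10). Their 20 Iglv UMIs lay almost evenly on 2 segments (effective number 1.99), unlike those of the Jchain-high cells of 4T1 mice (1.115). The 11 germinal-centre-type cells of naive mice in the myeloid and stromal library had 57.1% (18.4 to 90.1, from 7 light chain V UMIs) and 15.6%. Iglv1 was found in 17 of 1319 naive B cells led by kappa (1.29%, 0.753 to 2.06) and in 2 of 59 led by lambda (3.39%, 0.413 to 11.7), at medians of depth well below the Jchain-high cells (5219 against 38360 UMIs). Iglv3 was found in 24 of the 1319. In the Jchain-high cells Iglv3 had up to 10 UMIs and Iglv2, despite 96.7% identity to Iglv1, up to 2. The Iglv1 level varied among cells. Per 1000 Igkc UMIs Iglv1 had 0.767 to 36.5 (median 8.58), a wider range than the Igkv sum at 1.80 to 16.9 (median 5.11). The 6 cells led by Ighg2c had 18 to 263 Iglv1 UMIs (median 200), the 6 led by Ighg1 had 2 to 302 (median 103.5) and the 6 led by Ighm had 2 to 92 (median 11), with overlapping ranges. Of the 6 led by Ighg2c, 5 came from 4T1 mice, so constant gene and condition cannot be told apart. With so few cells no difference by constant gene is read from these values. The 768 myeloid cells of the 4T1 mice had 4 Iglv1 UMIs in all. The source of the Iglv1 UMIs was not tested.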

How the data were processed

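The matrices hold UMI counts per gene and cell as deposited by the authors; per the submitters' processing notes they were made with Cell Ranger 7.0 on mm10. Cells with at least 500 UMIs, 250 genes and at most 10% mitochondrial UMIs were used. A hashtag was assigned at 10 or more counts and 3 times the next, which removed barcodes with 2 hashtags or none; the atlases, from naive mice only, had no doublets removed. The members and gene lists were chosen with earlier results of these data known. Segments were named by rule: the 5 leading Ighv and Igkv and every Iglv of each atlas's naive B gate, the 2 leading heavy and light segments of each condition's plasma gate, up to 5 called in each direction per comparison, and the leaders of the 10 plasma-gate cells with the most V UMIs. Others (further segments of Jchain-high and germinal-centre-type cells) were named after their values were seen. UMIs were summed per gate and condition. A gene was called at 2-fold or more, with at least 50 UMIs in the group where it was higher and an exact conditional binomial 95% interval without 0. A sum of 0 was set to 3 UMIs of the group. Shares and the CPM of summed V segments have exact Clopper-Pearson intervals, and the CPM of a single locus has exact Poisson intervals. Each gate or hashtag condition of a library was 1 sample without replicates, so intervals cover counting error only and no p-value was computed. On simulated counts for the comparison of axillary with mediastinal naive B cells, over 8839 genes, 200 of 200 genes changed 4-fold were called, as were 29 of 8639 unchanged genes. A library of T cells was not used here. Identity was taken from global alignments of GENCODE transcripts (Biopython 1.88). Python 3.11.15, numpy 2.4.6, scipy 1.17.1 and scanpy 1.11.5 (scrublet) were used. One gene of the list for switching and hypermutation is not reported here, so no count is given for that list.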

Additional observations from a re-analysis of the deposited data

Results flagged for a closer look

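Barcodes with 2 hashtags or none were outside every comparison and carried V UMIs above the floor of 3. In the stromal library 185 such barcodes had 6 V UMIs. In the myeloid and stromal library 1114 had 2636, and 7 of them had at least 50 V UMIs each, up to 899, while 8 had at least 100 Jchain UMIs. Their condition is not known, and their part in the differences between conditions was not tested.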

How the results depend on the processing

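Of 161 values under other settings, 116 moved by less than their interval (counts by up to 1.5 times) and 45 by more; the cause was not tested. The settings without the cell filter and with at most 5% mitochondrial UMIs moved none of 26 values each. With Jchain at 20 and Mzb1 at 5 or more, the log2 V ratios were -0.28 for 4T1 over naive, -4.11 for 67NR over naive and 3.82 for 4T1 over 67NR, the top cell held 59.62% of the naive sum, and the 4T1 level was 3985.2 CPM. With a hashtag 10 times the next they were -0.24, -4.88 and 4.63, with 25.87% of the 4T1 sum in its top cell and 2022.8 CPM. Without the top cell of each sum they were 0.88 (4T1 over naive) and 4.61 (4T1 over 67NR), with Ighv9-3 at 14.29% and Igkv6-23 at 20.78% in 4T1 mice. Over UMIs outside immunoglobulin genes 67NR over naive was -4.11. The share of gate cells with at least 2 V UMIs gave -0.28 (67NR over naive) and 0.69 (4T1 over 67NR). The next shares counted each cell with at least 2 V UMIs on the locus once, by its leading segment. They were 22.77% for Igkv1-117 and 11.76% for Ighv5-6 in axillary naive B cells and 2% for Igkv9-120 in the germinal-centre gate. In 4T1 mice they were 20% for Ighv9-3 and 9.09% for Igkv6-23. The lambda shares were 0.909% (axillary naive B) and 40% (4T1). Without the 877 cells that scrublet called (7.62% of the axillary atlas) the axillary level was 215.6 CPM. With a minimum of 20 UMIs, 9 segments were higher in the axillary than the mediastinal gate, and 2 higher and 5 lower in germinal-centre cells. With 4 of 10 genes 2 were lower. Without the Ighd condition the axillary over mediastinal V ratio was 2.19 and the mediastinal germinal-centre ratio 0.66. Thinned to 1000 UMIs, 0 segments were called and the first ratio was 2.15. With 90% on 1 segment 67.21% of cells passed for Igkv. Settings chosen after seeing the data were these. Jchain at 100 or more gave -1.71, 2.12, 59.62% and 6444.1 CPM in the order above, without 4T1 over naive. The wider germinal-centre gate gave 3 higher and 2 lower segments, a mediastinal V ratio of 0.50, Igkv1-117 at 18.23% and Igkv9-120 at 13.42%. Lambda by constant genes was 1.681% in 4T1 mice, and 95.45% of cells held 1 Ighv family. No paired analysis was possible because each gate and condition of a library was 1 sample, and the libraries carry no replicate numbers that pair them. Depth limits the mediastinal comparison, in whose naive B and germinal-centre gates no segment reached 50 UMIs, and 3' reads resolve close relatives poorly.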
